A study of Mus musculus with 4 samples.

Results

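The last step of osteoclast formation in culture was read from 2 of the 4 arrays of the series, that of activated osteoclasts at 96 h and that of mature osteoclasts at 72 h. RAW264.7 cells, a mouse macrophage line used in place of primary bone marrow macrophages, had been induced with RANKL at 100 ng/ml and M-CSF at 50 ng/ml for 24, 72 or 96 h, or had not been induced (0 h). RNA of a whole dish was amplified into Cy3-labelled cRNA and hybridised to a 1-colour Agilent array that carries probes for mouse lncRNAs and mRNAs, with 1 array for each time point. The difference taken throughout is the 96 h value minus the 72 h value, on the log2 scale of the authors' quantile normalized table. A probe was a member of the comparison when the scanner software had called it well above background on both arrays, which held for 34989 of the 60804 probes in the table (57.5%). Of the remaining probes, 1342 were well above background at 72 h alone, 5608 at 96 h alone and 18865 at neither time. The labels name the stages only, and nothing was repeated, so a change has no p-value, standard error or interval here, and having so few arrays limits how precise each value is. "Rose" and "fell" below mean a difference of at least 2-fold between these 2 arrays.

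The files pair no gene name with a probe, and names, classes and positions were taken by probe name from lists of lncRNAs that the study had selected against 0 h at 24, 72 and 96 h. These lists named 2079 member probes of 2045 symbols, and the mRNA probes stayed unnamed. No named member came from a list lowered at 96 h and few from that lowered at 72 h. Named counts of rises and falls thus lean on the lists at hand. The lists for 72 h and 96 h were chosen with arrays that also form this comparison, so a name from the 72 h list of raised lncRNAs is by choice a probe with a high 72 h value. The stage labels could therefore be checked against few defining markers. Of 9 osteoclast markers 1, a noncoding transcript of Mmp9, was a named member, and of 6 macrophage markers 1, a noncoding transcript of Irf8. The Mmp9 transcript was lowest at 72 h (6.35, against 8.90 at 0 h) and the Irf8 transcript highest at 72 h (11.05, against 9.18 at 0 h). Neither goes with the label of mature osteoclasts at 72 h, though such a transcript need not follow the mRNA of its host. Markers of other lineages with a named member transcript were Hba-a1, Col1a1 and Runx2.

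Across the series, between 58.8% and 66.8% of the table's probes were well above background on an array, and the share was higher at 96 h than at 72 h (59.8%). Slide 1 held the arrays of 0 and 72 h and slide 2 those of 24 and 96 h, with median local backgrounds of 33 on slide 1 and 26 on slide 2. Slide and time point cannot be told apart in the comparison of 96 h with 72 h. Of the 30 probes printed 20 times on each array, 16 at 72 h and 15 at 96 h had at least 10 spots well above background. These had a median SD between spots (log2) of 0.07 at 72 h and 0.06 at 96 h, and a largest of 0.34 and 0.23. That covers spot noise of such probes within an array and nothing else, and leaves out probes near background. In a whole dish, fewer cells of a type and less RNA per cell cannot be told apart.

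Osteoclasts form when RANKL drives macrophage precursors to fuse into multinucleated cells that seal onto bone by an actin ring and dissolve it with acid and proteases. M-CSF keeps the precursors alive, and type I interferon, which RANKL itself induces, restrains the process through a loop of interferon-responsive genes. Long noncoding RNAs are transcripts over a length limit without a long reading frame, and are classed by where they lie relative to coding genes. Many of those on this array are spliced or truncated noncoding transcripts of coding genes, called exon sense-overlapping, and such a probe reads that transcript and need not follow the mRNA of its host.

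The 60-base probes of the lncRNAs with the largest differences are shown 5′ to 3′ as the design gives them, because each difference below is the brightness of 1 such oligo on 2 arrays. Capitals mark AATAAA, the usual signal for cleavage and polyadenylation. The lncRNAs with the largest falls came first:
V00821: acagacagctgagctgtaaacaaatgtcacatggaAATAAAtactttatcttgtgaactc
LOC100043315: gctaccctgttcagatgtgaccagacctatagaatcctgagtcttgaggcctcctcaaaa
AK089350: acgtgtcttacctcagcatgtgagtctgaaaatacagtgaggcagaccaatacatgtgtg
Gm17757: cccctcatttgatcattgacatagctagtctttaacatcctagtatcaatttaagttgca
AK046587: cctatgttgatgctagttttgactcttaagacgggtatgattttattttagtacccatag
The next 5 had the largest rises:
Mtag2: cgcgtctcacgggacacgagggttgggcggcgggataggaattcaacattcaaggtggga
AK207499: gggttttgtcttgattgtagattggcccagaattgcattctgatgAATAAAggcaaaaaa
AK027975: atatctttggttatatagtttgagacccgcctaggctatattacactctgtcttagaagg
AK044014: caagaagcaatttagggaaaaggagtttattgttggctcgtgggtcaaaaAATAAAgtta
Gm14074: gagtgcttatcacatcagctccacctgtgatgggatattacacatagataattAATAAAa
Nupr1, Ifi44 and Slc9b2 represent the groups of stress, interferon and osteoclast genes described further on:
Nupr1: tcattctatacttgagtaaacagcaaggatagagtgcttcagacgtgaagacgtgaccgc
Ifi44: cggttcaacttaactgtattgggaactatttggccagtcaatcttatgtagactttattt
Slc9b2: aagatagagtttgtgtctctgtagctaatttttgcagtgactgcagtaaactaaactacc
Of these 13 probes, those of V00821, AK207499, AK044014 and Gm14074 carry AATAAA. Among all 2079 named member probes 240 did (11.5%), with 112 (15.7%) of those that fell, 42 (8.54%) of those that rose and 86 (9.84%) of those within 2-fold.

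Between 72 h and 96 h, 3739 of the 34989 members rose (10.7%) and 4479 fell (12.8%), while 26771 (76.5%) stayed within 2-fold. The median difference was -0.02, with quartiles of -0.58 and 0.50. At least 4-fold differences were seen for 543 probes upwards and 986 downwards, and at least 16-fold differences for 58 upwards and 70 downwards. Of 6 bins by brightness, the dimmest, with mean values from 4.83 to 6.18, had 4.56% higher and 15.9% lower. The next, from 6.18 to 7.11, had 14.3% higher and 11.9% lower, and the brightest, from 12.21 to 19.10, had 8.88% and 11.9%. The lean downwards of the dimmest bin was thus not shared by its neighbour. The lowest member value was 5.15 at 72 h and 4.41 at 96 h, so the filter left the dimmest members more room to fall than to rise. Several large falls, those of V00821, Oas1g and Snx10 among them, ended at 96 h below 5.15, where no member could lie at 72 h.

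**Figure D1:**
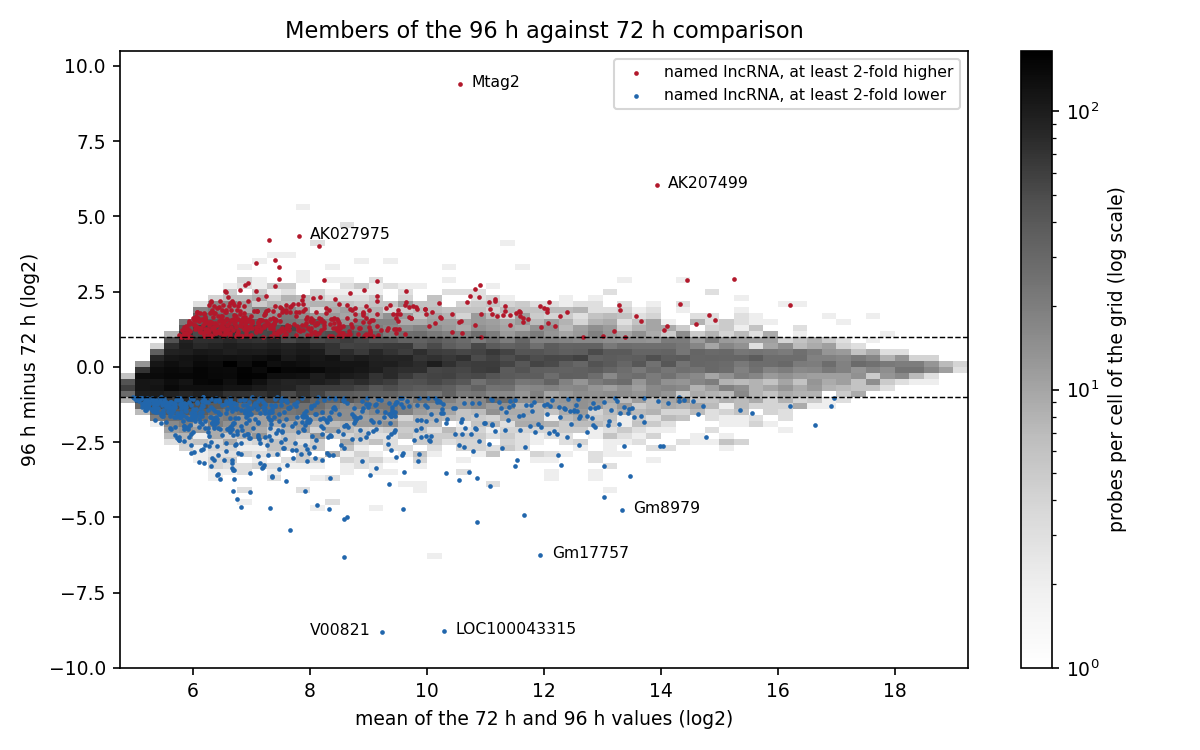
Difference between 96 h and 72 h (log2, vertical axis) against the mean of both values (log2, horizontal axis) for the 34989 members, with the number of probes per grid cell in grey on a log scale, named lncRNAs past 2-fold in red (higher) or blue (lower), and dashed lines at 2-fold. V00821 and LOC100043315 lie near -9 and Mtag2 lies above 9, apart from all other named probes.

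Of the named lncRNA probes, 492 rose (23.7%) and 713 fell (34.3%), with a median of -0.44. They made up 1205 (14.7%) of the 8218 members past 2-fold, and the others have no name here. Since the names were chosen against 0 h, these shares cannot be read against the background of 10.7% and 12.8%. Among 840 probes found only in the list raised at 72 h, 559 fell and 2 rose. Among 430 found only in the list raised at 96 h, 287 rose and 0 fell. The 24 h lists were chosen with neither array of the comparison, and of all 715 member probes on them, whether or not on another list too, 186 rose (26%) and 151 fell (21.1%), with a median of 0.09. Within these, the 195 lowered at 24 h had a median of -1.13, with 107 lower and 8 higher at 96 h than at 72 h, and the 520 raised at 24 h had a median of 0.52, with 178 higher and 44 lower. On both, more probes differed in the direction of the list than against it, and the arrays of 24 and 96 h share a slide.

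The largest fall was that of V00821, a transcript of the constant region of the immunoglobulin mu heavy chain at chr12:113418559-113421009 (GRCm38, minus strand), which the list classes as intergenic although RefSeq places Ighm there. It read 8.13, 8.75, 13.64 and 4.82 at 0, 24, 72 and 96 h, a fall of 452-fold from 72 h. M13680, inside the same gene at chr12:113420742-113420935, read 9.67, 10.05, 14.13 and 9.20 in the same order. Both probes thus peaked on the 72 h array alone, and V00821 ended below its 0 h value by 3.31 on the log2 scale while M13680 returned to within 0.47 of it. Immunoglobulin heavy chain is the product of B lymphocytes, and the other lymphoid transcripts that were members were TCRA (1.21), TCR-beta chain (1.26) and TCRD (0.58), of T cell receptor loci, and Il2ra (0.31), of an interleukin receptor. The rise of TCR-beta chain was 0.61 after normexp, a model-based background correction that is the alternative meant wherever normexp is named. The listed transcripts of Pax5 and Cd28, genes that mark B and T cells, were not members. The part of other cells in these values was not tested.

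LOC100043315, at chr15:95097622-95149318 (minus strand) and 1525 bases from Tmem117, read 5.91, 5.68, 14.68 and 5.90 at 0, 24, 72 and 96 h. Its high value stood on the 72 h array alone, where the scanner software had marked this spot as an outlier. AK089350, an intergenic RNA at chr8:66495059-66496946 (plus strand) and 8529 bases from Tma16, read 8.06, 5.67, 11.74 and 5.43, with no such mark. It too was highest at 72 h, and its 96 h value lay 0.24 below that at 24 h.

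A group of large falls lay on chromosome 7, where the very large interferon-inducible GTPases and their pseudogenes are encoded. Gm17757 (chr7:105924344-105928691, minus strand), within Gm4070, read 12.71, 11.79, 15.06 and 8.82 at 0, 24, 72 and 96 h. AK046587 (chr7:105885296-105886866), 8252 bases from Gm4070, read 8.09, 8.60, 10.35 and 4.95. Gm8979 (chr7:106075731-106079148), a pseudogene 77387 bases from Gvin1, read 13.38, 13.78, 15.71 and 10.95. All 3 were highest at 72 h and lowest at 96 h, and their 96 h values differed from those of 24 h, on the same slide, by -2.97, -3.66 and -2.83 (log2). The lists mark the probes of Gm17757 and Gm8979 as able to bind related transcripts, so which copy was read is uncertain.

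D430036J16Rik, a natural antisense RNA across the serotonin receptor gene Htr1b at chr9:81631930-81645156 (plus strand), was read by 3 probes. Their differences were -5.06, -4.98 and -4.72, and the brightest of them read 9.81, 10.59, 11.12 and 6.15 at 0, 24, 72 and 96 h. The 3 probes lay close together on every array, with the drop at 96 h alone. AK080501, within the gene of the B cell factor Pou2f2, read 9.79, 10.36, 11.95 and 7.23. AK052417, antisense to Nsun7 and Apbb2, read 11.45, 10.05, 13.44 and 8.27, and Gm17089, antisense to the leukaemia gene Etv6, read 6.04, 6.84, 9.15 and 4.48. All 3 had their lowest value at 96 h.

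Of the rises, the largest was that of Mtag2, a natural antisense RNA across Lin7b at chr7:45367233-45367948 (plus strand). It read 4.87, 3.94, 5.88 and 15.25 at 0, 24, 72 and 96 h, the 24 h value being not well above background, a rise of 664-fold. The scanner software had marked its 96 h spot as an outlier. Across the members 20 probes had such a mark on either array, 17 at 72 h and 4 at 96 h, and 14 of the 20 fell while 1 rose.

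AK207499 rose most among the named lncRNAs without a mark. It lies in the last part of Cpe, the gene of carboxypeptidase E, which trims peptide hormones, at chr8:64592543-64592716 (minus strand), and its probe can also bind the Cpe mRNA. It read 15.62, 12.67, 10.91 and 16.95 at 0, 24, 72 and 96 h, a rise of 65.5-fold to above its 0 h value. AK027975 (chr12:85432760-85433580, minus strand), 40310 bases from the osteoclast transcription factor gene Fos, read 8.23, 6.09, 5.64 and 9.97. AK044014 (chr9:120675536-120676271) read 7.57, 5.45, 5.19 and 9.41. All 3 shared a course: below 0 h at 24 h, lowest at 72 h and highest at 96 h.

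The same lowest point at 72 h and highest point at 96 h was read for Gm14074 (Platr3 in RefSeq) with 8.73, 8.38, 6.14 and 10.17, and for Adra1a, a transcript of the alpha-1A adrenergic receptor gene, with 7.57, 6.58, 5.63 and 9.18. Lpcat1, of the gene of a phospholipid acyltransferase, was bright throughout with 15.56, 14.75, 13.80 and 16.72. AK053163, antisense to Psd and 1701 bases from Nfkb2, which encodes an NF-kappa-B subunit that RANKL signalling uses, was also bright with 14.68, 13.99, 13.00 and 15.89. Vwf, of the gene of the endothelial clotting factor von Willebrand factor, read 7.62, 6.05, 6.0 and 8.93. The pseudogene Olfr260-ps1 differed from these, since its 0, 24 and 72 h values of 5.69, 5.52 and 5.35 lay close together before 8.80 at 96 h.

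**Figure D2:**
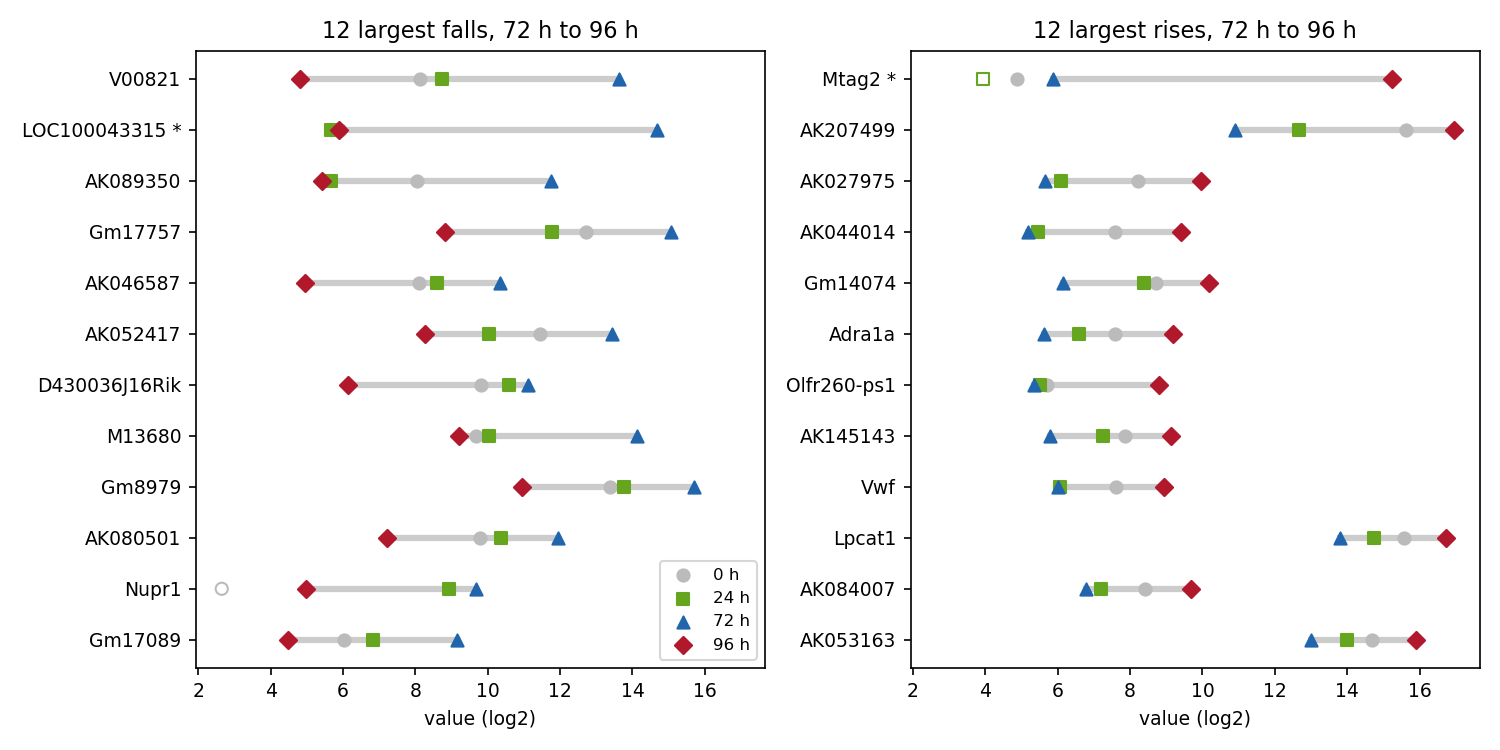
Values on all 4 arrays (log2, horizontal axis) of the 12 named lncRNAs with the largest falls (left) and the 12 with the largest rises (right) from 72 h to 96 h, 1 row per symbol with a grey bar from the 72 h to the 96 h value; open symbols were not well above background, and a star marks a spot called an outlier at 72 h or 96 h. Most falls start from a 72 h value above 0 h and 24 h, and most rises end at a 96 h value above all other arrays.

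Transcripts tied to interferon-inducible genes were mostly lower at 96 h. By symbol, overlapped gene or nearest coding gene, 14 named symbols fell in these families, chosen after their values were seen, and 10 fell, 1 rose and 3 were within 2-fold, with a median of -1.67. All 10 were on the list raised at 72 h, which by choice placed them high at 72 h. That list held 12 of the 14, with a median of -1.99, and over all 1045 member probes on it 593 fell (56.7%), with a median of -1.13. Ifi44, of a gene strongly induced by type I interferon, read 13.80, 14.62, 15.19 and 10.87 at 0, 24, 72 and 96 h, a fall of 20.0-fold. Oas1g, whose family makes the oligoadenylates that activate RNase L, read 7.20, 8.04, 8.75 and 4.61. BC094916, a transcript of Ifi214 in the cluster of interferon-inducible DNA sensors on chromosome 1, read 7.65, 8.63, 8.96 and 4.55. These 3 had climbed at each time up to 72 h and fell below 0 h at 96 h.

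In the same cluster of DNA sensors, Ifi203 read 10.97, 11.41, 12.19 and 9.40 and the transcript listed as Mnda read 12.08, 12.62, 13.57 and 11.23. Smaller falls were those of Gm16094 (-2.31), Sp110 (-1.68) and Gm10552 (-1.47) at the Sp110 and Sp140 genes, and of Gm12188 (-1.66) and AK079507 (-1.56) at Ifi47. The exceptions were Gbp3, a guanylate-binding GTPase, which rose by 1.44, AK079793, near Slfn8, just inside the limit (and past it with normexp, -1.02), Oasl1 with 0.57 and Sp100 with -0.65. With normexp, Sp110 (-0.85), AK079507 (-0.82) and Gbp3 (0.76) were within 2-fold. Of the 13 that were well above background at 0 h, 10 had risen to 72 h and then fell. At 96 h 5 of the 10 were lower than at 24 h by 2-fold or more, where 129 of 474 were among all named probes that rose and then fell. Such counts reuse the 96 h value by which the probes fell, here and for the lists below, and are no separate check of the fall.

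The letters of the interferon-stimulated response element were searched on either strand as GAAA repeated after a gap of 2 bases. Noncoding transcripts of Oas1g and Ifi203 fell, while the mRNAs of these hosts have no named probe here. The letters stand in capitals in the promoters of both genes. Each runs from 250 bases before to 50 after the start of transcription and comes from RefSeq on GRCm38.p6: Oas1g is chr5:120887564-120887863 and Ifi203 is chr1:173942443-173942742, both on the minus strand.
Oas1g: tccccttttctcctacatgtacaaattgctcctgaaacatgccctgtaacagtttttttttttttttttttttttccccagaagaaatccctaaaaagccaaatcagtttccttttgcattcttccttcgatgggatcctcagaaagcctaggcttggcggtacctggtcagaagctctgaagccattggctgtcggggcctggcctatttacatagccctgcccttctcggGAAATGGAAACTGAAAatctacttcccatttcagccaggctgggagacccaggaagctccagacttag
Ifi203: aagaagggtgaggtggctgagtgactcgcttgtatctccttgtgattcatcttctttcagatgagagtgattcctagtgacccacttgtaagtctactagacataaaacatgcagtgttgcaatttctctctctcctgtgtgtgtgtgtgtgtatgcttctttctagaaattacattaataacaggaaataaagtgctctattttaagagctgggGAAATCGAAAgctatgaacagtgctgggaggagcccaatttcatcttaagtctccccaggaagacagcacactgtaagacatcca
In Oas1g 2 matches overlap. The letters were found in 1131 of 32851 promoters (3.44%) and in 7 of 13 host or neighbour genes of these families (53.8%), namely Gbp3, Ifi203, Ifi211, Ifi214, Mndal, Oas1g and Slfn8. Ifi211 and Mndal are both overlapped by the 1 transcript listed as Mnda, and Slfn8 is only the neighbour of AK079793, which was within 2-fold. Ifi44, despite its large fall, is not among the 7. The families were picked as interferon-inducible, so their choice alone could give a higher share than that over all promoters. A match is a description and not a site or a cause, and Gbp3, which rose, holds one as well.

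On the same chromosome 1, 8 of 8 named member probes between chr1:84965293 and 85277814 fell, with differences from -3.40 to -1.37, and so did 4 of 4 between 85551311 and 85610224, at Sp110 and Sp140, with differences from -2.31 to -1.47. The former stretch holds copied sequence, so its probes may share RNA and are not separate observations. BC038927, which is placed at several of these copies, was read by 4 probes that fell, with differences from -2.63 to -1.68, and its brightest probe read 15.71, 15.95, 17.60 and 15.67 at 0, 24, 72 and 96 h. Gm16026 was read by 3 probes that fell, with differences from -3.40 to -2.02. All 4 probes of BC038927 were highest at 72 h.

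Over the wider list of macrophage and innate immune genes, 23 symbols were members, and 12 fell, 2 rose and 9 were within 2-fold, with a median of -1.04. This list overlaps the interferon families above: Ifi44, Oas1g, Ifi203, Mnda and Sp110 are among the 12 and Gbp3 among the 2. All 12 were on the list raised at 72 h, which held 18 of the 23, so 66.7% of these 18 fell against 56.7% of all its probes. Of the 11 that were well above background at 24 h, 6 had a 96 h value below that of 24 h by 2-fold or more. These 6 were Ifi44, Oas1g, Ifi203 and Mnda, already counted above, and Cd52 and Milr1. Cd52, of a small surface glycoprotein of leukocytes, read 7.57, 7.33, 9.17 and 5.53 at 0, 24, 72 and 96 h. Milr1, of an inhibitory immunoglobulin-like receptor, read 8.93, 9.59, 10.62 and 8.05. Both ended below 0 h, while Ccl4, of a macrophage chemokine, fell by 1.33 to 12.71, near its 0 h value of 12.48. Ms4a6b, Cd200r1, Irak4 and Card9 fell by 1.52, 1.09, 1.05 and 1.04, and Sod2, of the mitochondrial superoxide dismutase, rose by 1.53 from 5.17 to 6.70. With normexp Cd200r1, Card9 and Sod2 (0.59) were within 2-fold, and so was Irak4 with normexp (-0.39), cyclic loess, scaling to the 75th percentile (-0.48) and scaling to the median (-0.52).

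Genes of amino acid supply and endoplasmic reticulum stress, most of them known targets of the transcription factor ATF4, formed the other group with mostly lower values. Of 18 member symbols 11 fell, 2 rose and 5 were within 2-fold, with a median of -1.65. All 11 were on the list raised at 72 h, which held 14 of the 18, so 78.6% of these 14 fell against 56.7% of all its probes. Of the 10 well above background at 24 h, 4 had a 96 h value below that of 24 h by 2-fold or more. Nupr1, a small stress-induced chromatin protein, was not well above background at 0 h (2.65), and read 8.94, 9.67 and 4.97 at 24, 72 and 96 h. Stc2, of the secreted glycoprotein stanniocalcin 2, read 11.97, 12.79, 13.93 and 10.66 and was among the brightest of the group. Both were clearly lower at 96 h than at 24 and 72 h.

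Cars and Mars, of the transfer RNA synthetases for cysteine and methionine, fell by 2.85 and 2.03 and were also lower at 96 h than at 24 h by 1.73 and 1.51. Mars overlaps Ddit3, which encodes the stress factor CHOP. Aldh1l2, of mitochondrial folate metabolism, read 5.09, 5.12, 8.21 and 4.60, the 24 h value being not well above background. Transcripts of the transporter genes Slc7a11 (-2.57), Slc7a5 (-1.80) and Slc3a2 (-1.50) fell, the last gene encoding the heavy chain that both others pair with. Ppp1r15a, of the phosphatase subunit that ends the stress response, fell by 2.22 and Herpud1, of a protein of endoplasmic reticulum degradation, by 1.95. Atf3 read 7.66, 7.38, 10.11 and 8.68, so it fell by 1.43 from 72 h yet stayed 1.30 above 24 h. Against the rest, Gtpbp2 and Cbs, of a translational GTPase and of cystathionine beta-synthase, rose by 1.56 and 1.13. With normexp both (0.91 and 0.66) and Slc7a5 (-0.86) were within 2-fold. Yars, Ern1, Slc6a9, Mthfd2 and Dnajb11 were within 2-fold, from -0.85 to 0.54.

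The C/EBP-ATF response element, searched as TGATGNAA on either strand (TTNCATCA on the other), was found in 1304 of 32851 promoters (3.97%) and in 5 of 14 hosts of this list (35.7%), namely Atf3, Herpud1, Nupr1, Slc7a11 and Yars. Of these Yars was within 2-fold. The promoters of Nupr1 (chr7:126625421-126625720, minus strand) and Slc7a11 (chr3:50443564-50443863, minus strand) are shown from RefSeq on GRCm38.p6 with the match in capitals. Noncoding transcripts of these genes fell by 4.70 and 2.57, while the mRNAs of the hosts have no named probe here. The Nupr1 window lies inside the span of its noncoding transcript, so it is not the promoter of that transcript.
Nupr1: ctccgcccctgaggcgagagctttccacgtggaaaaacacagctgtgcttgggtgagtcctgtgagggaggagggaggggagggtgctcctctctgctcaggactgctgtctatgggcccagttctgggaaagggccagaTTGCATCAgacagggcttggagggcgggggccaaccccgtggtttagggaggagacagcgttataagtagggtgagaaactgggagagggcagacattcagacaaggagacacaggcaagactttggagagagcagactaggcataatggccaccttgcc
Slc7a11: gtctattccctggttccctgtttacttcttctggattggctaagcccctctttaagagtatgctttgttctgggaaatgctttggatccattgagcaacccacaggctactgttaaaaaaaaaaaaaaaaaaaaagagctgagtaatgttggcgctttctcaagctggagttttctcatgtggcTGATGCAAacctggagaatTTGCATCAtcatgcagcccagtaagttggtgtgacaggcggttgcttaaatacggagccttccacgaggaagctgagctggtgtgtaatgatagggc
Slc7a11 holds 2 matches, on opposite strands. This too is a description of letters in a window. Most genes of this list are known targets of ATF4, so its choice alone could give a higher share than that over all promoters.

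For genes of osteoclast formation and resorption, 7 of 26 listed hosts had a named member, and 3 rose, 3 fell and 1 was within 2-fold, with a median of 0.97. Slc9b2, of a sodium-proton exchanger that osteoclasts induce, read 8.66, 8.97, 5.54 and 8.32 at 0, 24, 72 and 96 h. Mmp9, of the matrix metalloprotease abundant in osteoclasts, read 8.90, 7.42, 6.35 and 8.06. Both were lowest at 72 h and did not exceed 0 h at 96 h. Ppargc1b, of the coactivator of mitochondrial biogenesis in osteoclasts, read 7.26, 6.79, 7.99 and 9.81 and was highest at 96 h.

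Irf8, of the macrophage factor that restrains osteoclast formation, read 9.18, 9.53, 11.05 and 9.27, so it returned to its 0 h value. Bcl6, of a repressor of osteoclast genes, read 7.76, 8.50, 9.40 and 6.55. Snx10, of a sorting nexin that resorption needs, was well above background at 72 h (7.40) and 96 h (4.53) and on neither of the other arrays, and its difference of -2.87 was -0.93 with normexp, so that the list then had 2 falls. Atp6v0a4, of a proton pump subunit, differed by 0.97. The transcripts that rose were not on the list raised at 72 h, and those that fell were all on it.

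Transcripts of cytoskeleton and adhesion hosts mostly rose. Of 15 members, 9 rose, 2 fell and 4 were within 2-fold, with a median of 1.13. All 9 that rose were on the list raised at 96 h, where by choice the 96 h value is high. Of all probes on that list and no other 66.7% rose, and of those also raised at 24 h alone, as Fermt2 and Vil1 were, 76.2%. Jup and Cobl, within 2-fold at 0.98 each, were on it too. Vim, of the intermediate filament vimentin, read 8.80, 8.17, 7.63 and 10.20 at 0, 24, 72 and 96 h. Lmna, of the nuclear lamins A and C, read 16.22, 16.48, 15.19 and 17.25. Pstpip1, of an adaptor of podosomes, read 9.69, 8.96, 9.0 and 10.92. Vim and Pstpip1 were past 2-fold above 24 h as well, while Lmna was 0.77 above it.

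Other rises were those of Lims1 (2.12), Fermt2 (1.82), Vil1 (1.46), Itga2b (1.15) and Flna (1.13), of integrin, integrin-linked and actin-binding proteins. Of the 9, 3 were at least 2-fold higher at 96 h than at 24 h. Fermt2, Vil1, Itga2b and Flna were within 2-fold of their 24 h value. Between 72 h and 96 h, Fermt2 (0.86) and Itga2b were within 2-fold with normexp, and Flna with scaling to the 75th percentile or the median. Arpc5l, of an Arp2/3 subunit, and Capza2, of actin capping protein, fell by 1.25 and 1.22, the latter by less than 2-fold with either scaling (-0.69 and -0.74) or normexp (-0.46).

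Lysosome hosts were mixed, with 2 higher, 1 lower and 9 within 2-fold among 12 members and a median of -0.15. Dnase2a, listed for the lysosomal nuclease, read 9.64, 9.67, 8.75 and 10.78 and Sgsh, of a lysosomal sulfatase, read 10.20, 9.68, 9.56 and 11.31, both highest at 96 h. Rragc, of a GTPase that ties the lysosome to mTORC1, fell by 1.23, but was within 2-fold with either scaling (-0.72 and -0.76) or normexp (-0.44), and Grn, of progranulin, was just inside the limit. Of 4 iron-handling members, Trf, of transferrin, rose by 1.20 (0.69 with normexp), Slc25a37, of the mitochondrial iron importer, fell by 2.33, and both ferritin hosts, Fth1 (-0.01) and Ftl1 (-0.02), were level.

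Long-known noncoding RNAs moved little. Airn, which silences the paternal Igf2r cluster, read 10.88, 9.84, 9.56 and 12.27 at 0, 24, 72 and 96 h, and it alone of 10 members passed 2-fold. Tug1, Snhg12, Snhg1, Hoxa11os, Fer1l4, Nespos, Six3os1, Dleu2 and Rian ran from -0.94 to 0.85. Of 8 lymphoid and erythroid symbols 3 rose and 3 fell, among them Hba-a1 (1.49), of alpha globin, and Hbb-bh0 (-3.08), of the beta globin locus, which was well above background at neither 0 nor 24 h. Of 26 pseudogenes 5 rose and 6 fell, with a median of 0.20.

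Some pseudogenes of housekeeping proteins were low on both arrays of slide 2. Hspe1-ps2, of the chaperonin HSP10, read 13.39, 9.68, 13.08 and 10.01 at 0, 24, 72 and 96 h. Rpl31-ps4, of a ribosomal protein, read 13.08, 10.52, 13.19 and 11.00, and Rpl31-ps24 read 8.65, 6.71, 9.24 and 5.98. In each, the 2 arrays of slide 1 were high and the 2 of slide 2 low, so that slide and time cannot be told apart here. These pseudogenes were named only by the list lowered at 24 h, which by choice placed their 24 h value below 0 h. Rps25-ps1, also of a ribosomal protein, had no such split, with 10.17, 13.86, 13.38 and 13.81.

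**Figure D3:**
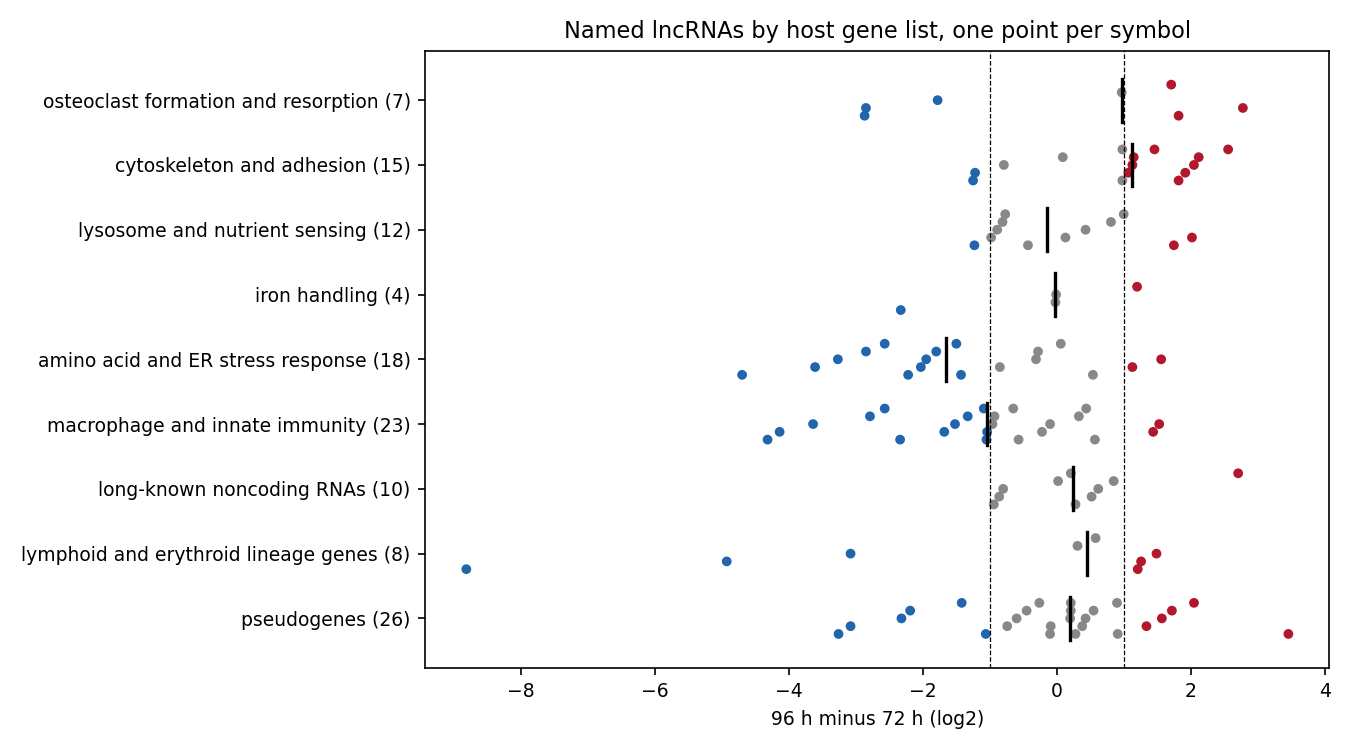
Difference between 96 h and 72 h (log2, horizontal axis) of each named lncRNA whose symbol is on a list of host genes, with the number of member symbols in brackets, the list median as a black bar and dashed lines at 2-fold. Points are red where higher, blue where lower and grey within 2-fold. The stress and innate immunity lists lie mostly left of 0 and the cytoskeleton list mostly right of it.

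Reversals were sought among the 1722 named members that were also well above background at 0 h. A probe reversed when its 72 h value was at least 2-fold off 0 h and its 96 h value at least 2-fold off 72 h in the opposite direction. Of all probes that passed the background flag at 0, 72 and 96 h, 2.57% rose and then fell and 3.58% fell and then rose. Among the named, 519 rose and then fell (30.1%) and 31 fell and then rose (1.8%). All 519 were on the list raised at 72 h, while 11 of the 31 were on the list lowered at 72 h, of which only a part was used here. The list raised at 72 h held 1045 member probes, while 8 were on the list lowered at 72 h and on no other. No named member was on a list lowered at 96 h, so the counts of 519 and 31 cannot be set against each other. Both steps use the 72 h array, and a high or low value there alone gives such a course.

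Of the 519, 440 ended within 2-fold of 0 h, 78 crossed to at least 2-fold below 0 h and 1 stayed at least 2-fold above it. The medians were 1.34 for the step to 72 h, -1.67 for the step to 96 h and -0.29 for 96 h against 0 h. Those that returned to 0 h after the largest steps were Dhrs3, of a retinol dehydrogenase, with 6.18, 6.22, 9.47 and 5.69 at 0, 24, 72 and 96 h, AK009210, within Klhl33, AK015284, A130023I24Rik, AK163331, AK041809 and Aldh1l2, besides LOC100043315 and M13680. Their differences between 96 h and 0 h ran from -0.49 to 0.11. Sqrdl, of a mitochondrial sulfide oxidase, Stap1, of a signalling adaptor, and Brdt, of a testis bromodomain protein, also came back to near 0 h, with differences of -0.56, -0.48 and -0.82.

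Crossings below 0 h included V00821, AK089350, Gm17757, Gm8979, AK046587, AK080501, AK149231 (-3.95, beside AK080501 in Pou2f2), AK052417, Gm17089, AK015411, AK040682, Stc2 and Bcl6. AK040682 lies antisense in an intron of Runx1, a regulator of blood cell fate, and read 6.38, 7.27, 8.33 and 4.60 at 0, 24, 72 and 96 h. AK015411 (chr7:126740629-126742181, plus strand), 17445 bases from the kinase gene Mapk3, read 6.87, 7.14, 9.19 and 5.51. Jam2, of a junctional adhesion molecule, Rasal3 and Spag16 crossed with 96 h values 1.21, 1.80 and 1.96 below 0 h on the log2 scale.

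The 31 that fell and then rose ended on either side of 0 h. At least 2-fold above 0 h at 96 h ended 19, among them AK207499, AK027975, AK044014, Gm14074, Adra1a, AK145143, Vwf, Lpcat1, AK084007, AK053163, AK084660, Airn, Gpr137b-ps by its dimmer probe (its brightest fell by only 0.67 to 72 h), Gm15726, Vim, AK148560, Vaultrc5 and Lmna. Within 2-fold of 0 h ended 11: Slc9b2, Mmp9, AK076567, 1700109K24Rik, A330076H08Rik, Mboat1, Dmxl1, Gm6081, Gm2447, XLOC_006222 and the RNA of an ultraconserved element in an intron of St18. AK137448, in an intron of Gm10693, stayed 1.43 below 0 h, with 9.17, 3.26, 5.62 and 7.74 at 0, 24, 72 and 96 h, the 24 h value being not well above background. Vaultrc5 is a vault RNA, a small noncoding RNA of a large ribonucleoprotein particle. The medians were -1.41 for the step to 72 h, 2.56 for the step to 96 h and 1.16 for 96 h against 0 h.

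The 96 h values of these probes were also set against 24 h, as a description, since the same 96 h values had chosen them. Of the 519, 474 were well above background at 24 h, and 129 of these had a 96 h value below that of 24 h by 2-fold or more, while 3 had one above it by as much. Of the 31, 30 were well above background at 24 h and 18 were at least 2-fold higher at 96 h, while 1, Gm6081, was at least 2-fold lower. The 18 were the 19 crossings other than Lmna. At 24 h already, 13 of the 519 were at least 2-fold above 0 h and 8 of the 31 at least 2-fold below it.

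**Figure D4:**
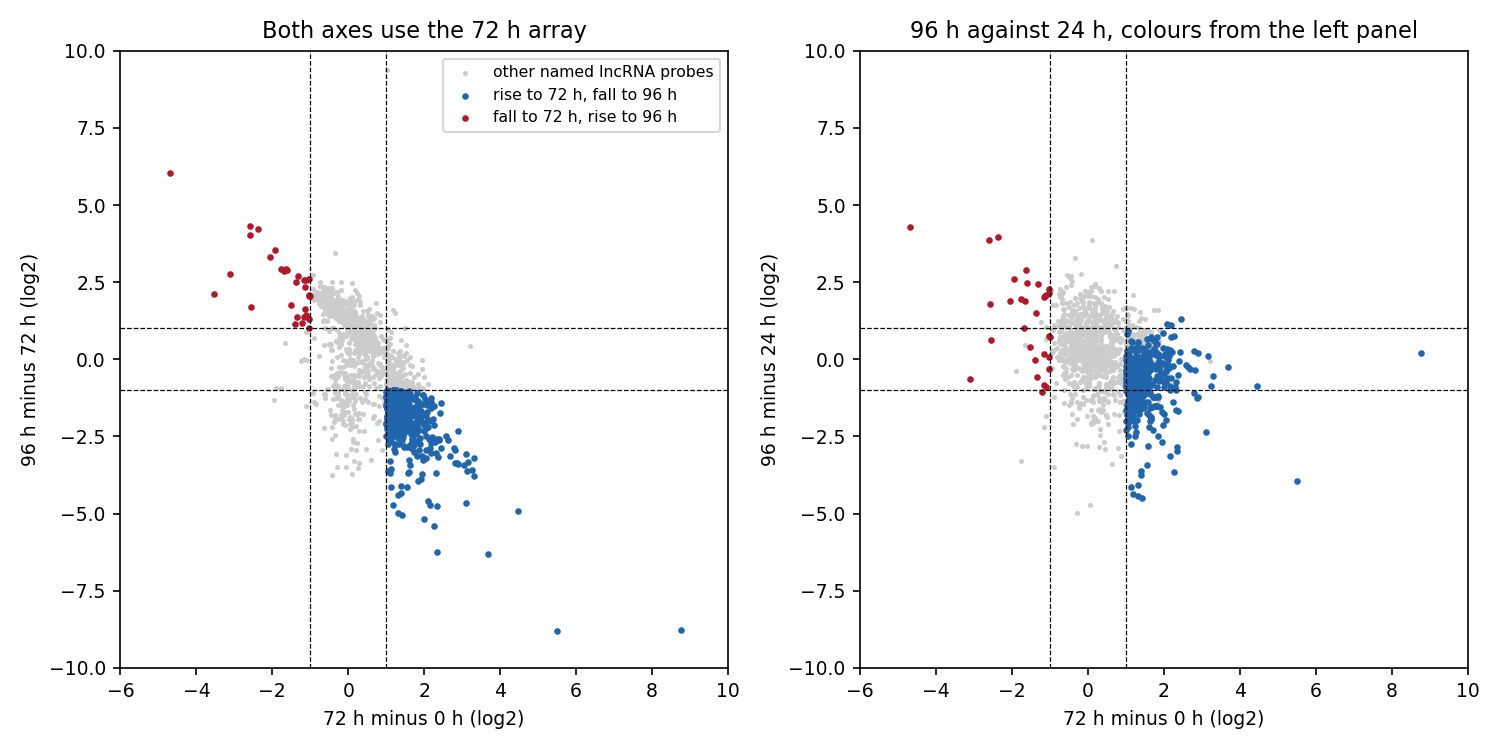
Named lncRNA probes well above background at 0, 72 and 96 h, with 72 h minus 0 h (log2) on the horizontal axis of both panels and on the vertical axis 96 h minus 72 h (log2, left) or 96 h minus 24 h (log2, right, probes well above background at 24 h). Blue points rose and then fell, red points fell and then rose, dashed lines mark 2-fold; the colours of the right panel come from the left one and so from the 96 h array, and there 129 blue points lie below -1 and 18 red points above 1.

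The 6 classes of lncRNA were split unevenly. Bidirectional lncRNAs, which start beside a coding gene and run away from it, had 76 lower and 15 higher of 145, with a median of -1.04. Of these 145, 100 were named by the list raised at 72 h alone, and of the 25 on a 24 h list 7 rose and 3 fell. Intergenic lncRNAs had 292 lower and 237 higher of 922 (median -0.25), and exon sense-overlapping ones 183 lower and 152 higher of 587 (median -0.25). Natural antisense RNAs had 98 lower and 51 higher of 248 (median -0.62), intronic antisense RNAs 47 and 32 of 136 (median -0.54) and intron sense-overlapping RNAs 17 and 5 of 41 (median -0.83). On the 24 h lists, lower and higher were 88 and 84 of 344 intergenic, 32 and 64 of 209 exon sense-overlapping and 9 and 21 of 68 natural antisense probes. They were 14 and 8 of 52 intronic antisense and 5 and 2 of 17 intron sense-overlapping probes. On the 24 h lists the lean thus turned for bidirectional, exon sense-overlapping and natural antisense RNAs and kept its direction for the other classes. The list raised at 72 h alone named 316 of the 922 intergenic probes, a smaller part than of the bidirectional ones. Within that list the share that fell differed little by class, from 64.6% (intergenic) to 72% (bidirectional). The uneven split is thus not to be read as a trait of a class.

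The largest changes of the classes not yet named were those of Atad3aos, bidirectional to Atad3a, with 7.61, 7.94, 8.74 and 5.20 at 0, 24, 72 and 96 h, and of Gm26725, bidirectional at Rbm47, with 5.73, 5.93, 5.21 and 7.39. Atad3aos has another probe, which fell by 2.43. AK087292, in an intron of Pde4d, fell by 2.91 from 8.88 to 5.98. In sequence, the probes of lncRNAs that fell had a median GC content of 40%, against 45% for those that rose and 43.3% within 2-fold. Median transcript lengths were 1211 bases for those that fell, 1034 for those that rose and 1143 within 2-fold.

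Of 27 symbols with several member probes, 21 had a probe past 2-fold, and in 9 all probes changed in the same direction. In 3 symbols, 1810062O18Rik, 1700091E21Rik and Gm16136, probes changed in opposite directions. 1810062O18Rik, antisense to Usp54 and Ppp3cb, was lower by its brightest probe (-1.16) and higher by its other probes (1.12 and 1.31), so the direction depended on the probe. TCRA was read by 3 probes at different segments, which rose by 1.21 to 1.35, 1 of them by 0.76 with normexp.

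Of 10 lncRNAs that the study had chosen for quantitative PCR, 5 could be paired with a probe and 4 were members. By the paired probes, Lgi1 was the only one of these 4 to rise, with 6.32, 5.56 and 7.76 at 24, 72 and 96 h. Its 0 h value of 3.32 was not well above background. Vmn1r-ps29 fell by 1.06, though by less than 2-fold with normexp and either scaling, and A330076H08Rik (-0.85 by its paired probe) and AK133148 (-0.39) were within 2-fold. Another probe of A330076H08Rik rose by 1.44. None of the 4 paired probes was well above background at 0 h, where 3 of them read 2.65.

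Comparisons that share no array were set side by side to describe the slides. Across the 32668 probes that passed the background flag on every array, the change from 0 h to 72 h, within slide 1, had a correlation across probes of r = -0.24 (rho = -0.18) with the change from 24 h to 96 h, within slide 2. The change from 0 h to 24 h and that from 72 h to 96 h, both slide 2 minus slide 1, had r = 0.25 (rho = 0.17). Probes share the scaling of each array and are not independent replicates, and these values are a description. At least 2-fold lower in both of the latter changes were 1186 probes, against 259 higher in both and 64 and 143 in opposite directions. Within slides, 253 probes were higher at 72 h than at 0 h and lower at 96 h than at 24 h (0.774%) and 258 the opposite (0.79%), while 48 were higher in both and 59 lower in both.

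Among the 1596 named probes of this kind, 130 were higher at 72 h than at 0 h and lower at 96 h than at 24 h, and 20 the opposite. Here too the lists named few probes lowered at 72 h. In the changes that cross slides, 167 named probes were higher in both, 104 lower in both, and 30 and 13 in opposite directions. Probes that had been lower at both 24 h and 72 h than at 0 h numbered 189 in all, and 102 of these rose from 72 h to 96 h. Of 63 that had been higher at both times, 27 fell.

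**Figure D5:**
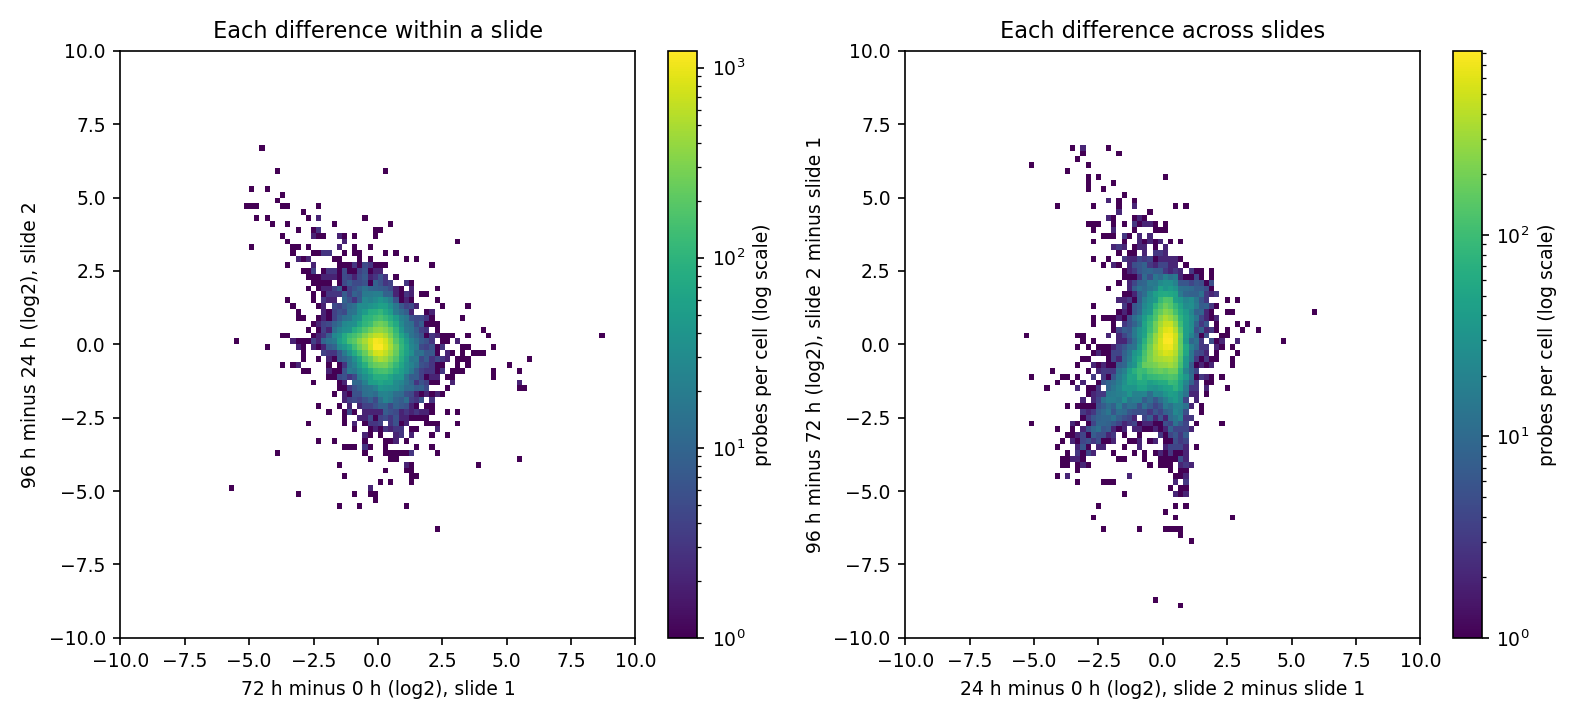
Number of probes per grid cell (colour, log scale) among the 32668 probes that passed the background flag on every array, for 2 pairs of changes that share no array, 72 h minus 0 h against 96 h minus 24 h (left, each within a slide) and 24 h minus 0 h against 96 h minus 72 h (right, each slide 2 minus slide 1), all in log2. The right panel has a lobe of probes that are lower in both changes, where 1186 probes are past 2-fold.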

How the data were processed

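RNA of 4 dishes of RAW264.7 cells was measured on 4 arrays, 1 per time point, grouped by the labels. The labels start the labelling from total RNA with a T7 promoter primer, and the study's methods from RNA cleared of rRNA with random priming, so which was used is not settled. The authors scanned the arrays and quantified their spots in Agilent Feature Extraction, for which the headers give 11.0.1.1, and the deposited intensity values are its processed signal, mean signal and local background with the flag for a spot well above background. The authors deposited log2 values of 60804 probes, quantile normalized in GeneSpring, and 0 columns of that table were left unused. They differ by at most 0.0312 from quantile normalized processed signals recomputed here.

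The difference was the 96 h log2 value minus the 72 h log2 value, with a limit of 2-fold and no test. Names, classes and positions came by probe name from the supplementary lncRNA lists, held here in part, and their columns of fold changes and p-values were not used. Starts were shifted by 1 base, and 907 of the 916 named probes with a RefSeq gene of the same symbol and chromosome on GRCm38.p6 overlapped it. Promoters came from RefSeq.

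Each symbol was represented by its brightest probe, except that reversals, classes and list sources were counted over probes. Named were the 12 largest rises and falls, the 12 largest reversals each way, the extremes of each class, list members past 2-fold, symbols with at least 3 probes and the lncRNAs with PCR primers. A few others, the interferon families among them, were named after their values were seen, and a few named by the rule are not reported here. Members and lists were chosen with earlier results of these data known.

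The alternatives were other scalings, normexp background correction with an offset of 50, other filters, limits of 1.5-fold and 4-fold, differences within slides and the median over probes. Leaving out probes listed with possible cross-hybridisation was added after seeing the data. The counting was tested on simulated data. Arrays have no read depth, and the background flag took its place. Python 3.11.15 with numpy 2.4.6, pandas 2.3.3 and matplotlib 3.10.9 and limma 3.58.1 in R 4.3.3 were used.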

Additional observations from a re-analysis of the deposited data

Results flagged for a closer look

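A difference of direction between time points was seen for 78 named lncRNA probes that were at least 2-fold above 0 h at 72 h and at least 2-fold below 0 h at 96 h, with V00821 and Gm17757 among them. The opposite course, at least 2-fold below 0 h at 72 h and above it at 96 h, was seen for 19, with AK207499 among them. Few names came from a list lowered at 72 h, so these counts cannot be set against each other. With 1 array per time point, neither difference was tested. Outside the table of log2 values, the scanner files hold 126 probes that are not controls, of which 90 were well above background at 72 h and 96 h. Of these, 5 rose past 2-fold and 28 fell past it.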

How the results depend on the processing

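No paired analysis was possible because each time point has 1 array. The counts, in the order of all probes higher and lower, named probes higher and lower, and named probes that rose then fell and fell then rose, were 3739, 4479, 492, 713, 519 and 31. With normexp they were 2212, 2636, 267, 420, 245 and 19. With probes well above background on all arrays and at or above the median signal they were 1762, 2068, 131, 235, 167 and 13, and with no filter 8152, 8033, 1388, 1131, 969 and 194. At 4-fold they were 543, 986, 77, 222, 48 and 7. At 1.5-fold, all probes higher and lower were 7639 and 8680, and 100 named probes fell then rose. Within slides, 248 named probes had a change from 24 h to 96 h at least 2-fold above their change from 0 h to 72 h. That is a difference of changes, a measure unlike the 492. Reversals of the change within slide 1 by that within slide 2 were 130 and 20. Each other alternative kept these counts within 1.5 times, but the majority turned: scaling to the 75th percentile gave 4604 higher and 4225 lower, 52.1% higher among calls against 45.5%, and 612 and 603 among the named. For 1810062O18Rik the median over its probes was 1.12 in place of -1.16. Of 125 probes of named genes past 2-fold, 100 kept their direction and limit under every scaling and background alternative, as did 256 of the 492 named probes higher and 417 of the 713 lower. Lost under normexp were, among others, Snx10 (-0.93), Slc7a5 (-0.86), Sp110 (-0.85), Fermt2 (0.86), Gtpbp2 (0.91) and Cbs (0.66). Mtag2 and LOC100043315 had no value where marked spots were left out. The causes were not tested. Dim signals limit the fall of a probe near background.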
